A study of Mus musculus with 3 samples.

Results

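The regions described here are CHD7 peaks that lie between genes and share DNA with a SOX2 peak in the mouse otocyst. They were chosen by the positions of the called peaks: CHD7 peaks on chromosomes 1 to 19 and X whose span met that of a SOX2 peak by 1 base or more, that overlapped no protein-coding gene of RefSeq and lay more than 1 kb from every protein-coding gene end. There were 10161 such regions among 33035 CHD7 peaks, or 30.8% (95% interval 30.3 to 31.3). They made up 60.3% of the 16853 CHD7 peaks between genes on these chromosomes. The rule used the 2 peak lists themselves, so the sharing and the signal of the regions are described without a test. The regions are candidates for distal enhancers by position only, because no activity, histone mark or gene expression was measured here.

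The inner ear grows out of the otocyst, a closed epithelial sac beside the hindbrain. Otocysts of wild-type mouse embryos were dissected at E10.5, and 34 of them were pooled, dissociated with Accutase and divided into 3 samples for CUT&Tag, in which an antibody brings the Tn5 transposase to the DNA near a bound protein. The first sample received anti-CHD7, the second anti-SOX2 and the last no primary antibody, with 1 library each. All samples came from the same pool of cells, so no group has a replicate, and the peak lists of the CHD7 and SOX2 samples were compared while the control was not analysed here. Dissected otocysts can carry cells of the tissues around them, and the peak lists cannot tell which cells a peak came from.

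CHD7 is an ATP-dependent chromatin remodeler that slides nucleosomes, and loss of one copy of its gene causes CHARGE syndrome, in which the semicircular canals and hearing are often affected. SOX2 is an HMG-box transcription factor that is needed for the sensory and neural lineages of the inner ear. Enhancers of developmental genes can act over long distances, so the nearest gene, used below to name a region, is not necessarily the gene it acts on.

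A small part of the regions cover the start of a noncoding RNA, since the rule set aside protein-coding genes only, and there the DNA under the peak can be shown. Of the promoter windows in RefSeq, which run from 250 bases before to 50 bases after an annotated start, 124 windows of 115 genes lay wholly inside a region. The following 4 windows were chosen after their values were seen, because the nearest protein-coding genes encode a CHD remodeler, a HOX factor, a T-box factor and a WNT ligand. The coordinates are those of mm10 (GRCm38.p6), the sequences are RefSeq's, read 5′ to 3′ along the noncoding gene, and capitals mark, on either strand, the letters ACAATG, the related ACAAAG, or the form AACAAT, all short versions of the site that SOX proteins recognise.
Chaserr: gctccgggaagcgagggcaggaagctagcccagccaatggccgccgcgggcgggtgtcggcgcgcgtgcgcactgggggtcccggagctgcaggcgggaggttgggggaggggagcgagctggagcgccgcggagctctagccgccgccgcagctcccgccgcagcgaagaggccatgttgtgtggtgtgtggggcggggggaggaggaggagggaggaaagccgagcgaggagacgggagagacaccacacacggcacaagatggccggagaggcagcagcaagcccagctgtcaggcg
Gm30528: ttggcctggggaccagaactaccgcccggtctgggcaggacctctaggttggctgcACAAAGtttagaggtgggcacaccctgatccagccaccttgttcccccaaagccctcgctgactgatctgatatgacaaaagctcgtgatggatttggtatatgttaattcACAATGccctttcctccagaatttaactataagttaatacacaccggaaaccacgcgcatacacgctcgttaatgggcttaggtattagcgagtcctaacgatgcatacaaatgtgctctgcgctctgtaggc
Gm33460: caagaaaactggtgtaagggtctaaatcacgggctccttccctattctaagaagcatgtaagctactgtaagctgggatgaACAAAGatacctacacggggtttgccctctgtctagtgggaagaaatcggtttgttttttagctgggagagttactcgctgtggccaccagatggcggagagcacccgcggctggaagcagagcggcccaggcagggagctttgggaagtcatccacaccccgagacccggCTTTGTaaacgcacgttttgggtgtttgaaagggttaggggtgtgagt
D130051D11Rik: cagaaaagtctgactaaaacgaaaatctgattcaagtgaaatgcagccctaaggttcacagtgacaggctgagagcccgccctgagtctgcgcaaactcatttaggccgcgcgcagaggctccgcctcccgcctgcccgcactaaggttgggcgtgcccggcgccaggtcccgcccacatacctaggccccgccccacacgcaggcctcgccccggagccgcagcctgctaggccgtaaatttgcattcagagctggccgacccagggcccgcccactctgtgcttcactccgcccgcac
Chaserr, a noncoding RNA gene next to the remodeler gene Chd2, has its window at chr7:73558346-73558645 on the minus strand, in a region with a CHD7 total signal of 1794 and a SOX2 total signal of 2991. The total signal is the coverage summed over a peak as the authors' lists give it, and its scale differs between both lists. Gm30528, at chr15:103060506-103060805 on the minus strand, starts in a region 22.9 kb from Hoxc4, with totals of 551 for CHD7 and 2698 for SOX2. Gm33460, at chr9:118489730-118490029 on the minus strand, starts in a region 2.92 kb from Eomes, a T-box gene of early progenitors, with totals of 496 and 1759. D130051D11Rik, at chr15:85634346-85634645 on the plus strand, starts in a region 52.4 kb from the WNT ligand gene Wnt7b, with totals of 1298 and 7448. The Chaserr and D130051D11Rik windows hold none of these letters, while Gm30528 has ACAAAG and ACAATG and Gm33460 has ACAAAG on each strand.

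Among the 124 windows inside regions, 25.8% (18.4 to 34.4) held at least 1 of these motifs, against 33.2% of all 32851 promoter windows and 39.5% of the 11575 windows of lncRNA genes. ACAATG was in 9.68% (5.10 to 16.3) of the windows inside regions, 12.6% of all windows and 15.4% of those of lncRNA genes. For ACAAAG the shares in the same order were 14.5% (8.84 to 21.97), 18.7% and 22.2%, and for AACAAT 5.65% (2.30 to 11.3), 10.7% and 13.8%. The first and last of these motifs share the letters ACAAT and can overlap on the DNA. The windows inside regions were rich in CG dinucleotides, with a median of 14 per window against 7 in all windows and 4 in those of lncRNA genes. Some of the 124 windows cover nearly the same DNA, such as those of Gm4718 and of Gm33224. They are therefore not independent, while the intervals count them as if they were. A match is a description of letters, and the windows inside regions are a small and CG-rich part of the regions.

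Also inside regions were the genes of several microRNAs, short RNAs that silence transcripts matching their seed (bases 2 to 8, in capitals). They are shown because they are known from neural cells and a pair of them shares its seed.
miR-9-5p: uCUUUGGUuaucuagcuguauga
miR-132-3p: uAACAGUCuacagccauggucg
miR-212-3p: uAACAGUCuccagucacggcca
miR-9-5p, abundant in neural progenitors, comes from Mir9-2, which lay in the region chr13:83737401-83738900, 70.3 kb from Mef2c, with a CHD7 total of 838 and a SOX2 total of 2053. Mir132 and Mir212 stood together in 1 region, chr11:75173201-75174150, 1.79 kb from Ovca2, with totals of 487 and 1437. Their 3p arms share the seed AACAGUC. In all, 5 regions touched 7 microRNA genes, and their CHD7 totals ran from 487 to 1079.

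The regions were broader and had more CHD7 signal than the CHD7 peaks between genes that shared nothing with SOX2. Their median width was 1000 bases (quartiles 700 and 1300) against 850 in the 6692 CHD7 peaks without SOX2. Their median total signal was 720 (quartiles 556 and 1047) against 560 (483 and 692). The median highest coverage within a peak was 1.82 against 1.64. A wider peak has more bases with which to meet a SOX2 peak, and the part of width in the difference of signal was not tested. CHD7 peaks with SOX2 at gene ends (5178, median total 788) and inside genes (6023, median total 733) were close in signal to the regions.

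The SOX2 side showed a wider gap. The 10878 SOX2 peaks that met a region had a median SOX2 total signal of 1466 (quartiles 1026 and 2346), against 938 (821 and 1173) in the 68068 SOX2 peaks between genes without CHD7. Of the SOX2 peaks that met a region, 31.4% (30.5 to 32.3) were among the strongest 10% of the SOX2 list, and of those without CHD7 4.09% (3.94 to 4.24) were. The median of those that met a region lay above the upper quartile of the whole SOX2 list, 1349. The SOX2 list is the longer one, and its wider peaks also had more bases with which to meet a CHD7 peak.

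Within a region the peaks of both proteins overlapped closely. The median number of shared bases was 600 (quartiles 450 and 850), and SOX2 covered a median of 70.8% of the CHD7 peak. In 7794 regions (76.7%) at least 50% of the CHD7 peak was covered, and in 1893 (18.6%) all of it was. The places of highest coverage lay a median of 150 bases apart, within 100 bases in 46.6% of regions and within 500 bases in 85.0%. More than 1 SOX2 peak met 773 regions (7.61%). At Sox2 neighbours differed: a region 10.9 kb beyond the gene was covered over 82.9%, and its neighbour at 14.9 kb over 6.9%.

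Across the 10161 regions the CHD7 total went with the summed SOX2 total (Spearman's rho 0.462) and with the width of the CHD7 peak (rho 0.442). Without the 673 regions that were wider than 3 kb, had a maximum above 10 times the median, lay on genes for rRNA, tRNA, snRNA, snoRNA or pseudogenes, or stood in groups of 10 or more, the first value was 0.432 over 9488 regions. These 673 regions, a set defined after seeing the data, are called unusual below. The regions are not independent points, since both libraries came from the same cells and both totals grow with width.

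**Figure D1:**
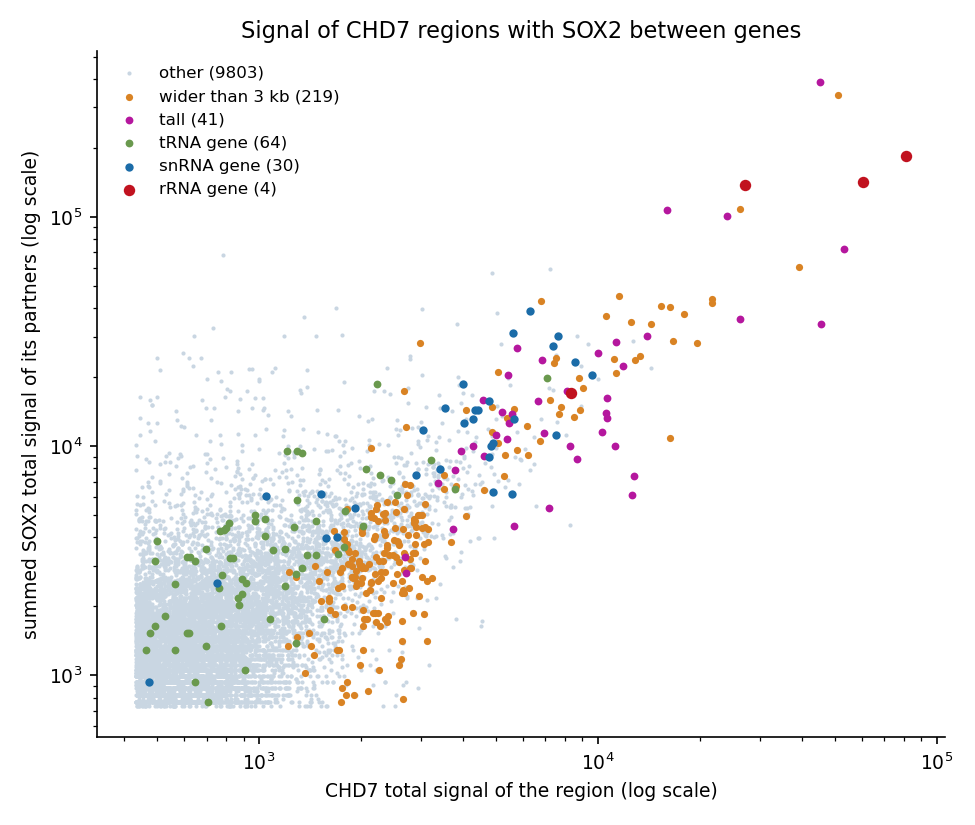
CHD7 total signal of each of the 10161 regions (x axis, log scale) against the summed SOX2 total signal of the peaks it meets (y axis, log scale, signal in the units of each list). Each point is a region, placed in 1 kind only, tall means a maximum above 10 times the median, and the 4 regions on rRNA genes and most of those on snRNA genes stand above the bulk in both.

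The upper end of the signal range was taken by a small set of unusual places. The highest total, 81413, belonged to chr8:123604601-123624300, a peak of 19700 bases between Gas8 and Rhou that covers 5S rRNA genes, whose product is a part of the ribosome. In all, 4 regions covered 26 of these genes, with totals from 8312 to 81413. The third highest, 53090, was a narrow peak of 900 bases at chr12:104442001-104442900 between Serpina3n and Gsc, with a maximum of 177 where the median region had 1.82. A peak of 500 bases at chr17:4626151-4626650, 367.6 kb from the remodeler gene Arid1b, had the highest SOX2 total of all regions, 387527. Regions at rRNA pseudogene Rn18s-rs5 (total 50999) and 47.5 kb from Dap (45666) were also among the 5 highest CHD7 totals. No control list was used here, and whether these places also had coverage without an antibody was not tested.

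Genes for tRNA and snRNA were more common in the regions than in either other class. The regions were also wider, with a median of 1000 bases against 850 for CHD7 peaks without SOX2 and 600 for SOX2 peaks without CHD7. A wider peak has more bases with which to meet a small gene, and the part of width in these shares was not tested. The 64 regions on tRNA genes (0.630%, 0.485 to 0.804) covered 104 of these genes, against 0.194% of CHD7 peaks without SOX2 and 0.0411% of SOX2 peaks without CHD7. The 31 regions on snRNA genes, most of which encode parts of the spliceosome, were 0.305% (0.207 to 0.433), against 0.0299% and 0.0191%. Genes for snoRNA were in 0.148% (0.0826 to 0.243) of regions, close to the 0.141% (0.114 to 0.172) of SOX2 peaks without CHD7, and in 0.0149% of CHD7 peaks without SOX2. The median CHD7 total of the regions on snRNA genes was 4431, while that of the regions on tRNA genes was 943. A run of 4 snRNA genes near Mreg and Pecr shows the level: Gm25360 had a total of 4850, Gm23472 of 2915, Gm24497 of 4782 and Gm25939 of 3042. Regions on lncRNA genes were 1292 (12.7%), against 11.2% and 14.3% in the other classes, and their median total of 720 was that of all regions.

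The regions lay somewhat nearer to gene ends than the sequence between genes as a whole. At 5 to 10 kb lay 8.36% of the regions and 6.72% of the bases between genes, and beyond 500 kb 11.1% and 14.97%. The rule left out genes and 1 kb around their ends, so every distance given here is above 1 kb. The median distance to the nearest protein-coding gene end was 65.6 kb (quartiles 17.6 and 222.6), against 75.1 kb for CHD7 peaks without SOX2 and 57.3 kb for SOX2 peaks without CHD7. Within 10 kb lay 1650 regions (16.2%, 15.5 to 17.0), compared with 15.02% (14.2 to 15.9) and 18.5% (18.2 to 18.8). Beyond 100 kb lay 4221 (41.5%, 40.6 to 42.5), compared with 44.1% (42.9 to 45.3) and 38.6% (38.3 to 39.0). The regions thus stood between the other classes at both ends of the range. Without the 673 unusual regions the median was 68.1 kb. When genes of every biotype were counted, it was 21.2 kb.

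Per length of sequence, the regions thinned out with distance. There were 7.13 per Mb at 1 to 5 kb from a gene end, 8.21 at 5 to 10 kb, 7.06 at 50 to 100 kb and 4.88 beyond 500 kb, with 6.60 over all 1539 Mb between genes. CHD7 peaks without SOX2 went from 4.37 per Mb at 1 to 5 kb to 3.56 beyond 500 kb, and SOX2 peaks without CHD7 from 60.6 to 27.1. The fall was thus steepest for SOX2 peaks without CHD7, and the regions fell from their highest bin at 5 to 10 kb. Of the regions, 1123 (11.1%) were more than 500 kb from any protein-coding gene.

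**Figure D2:**
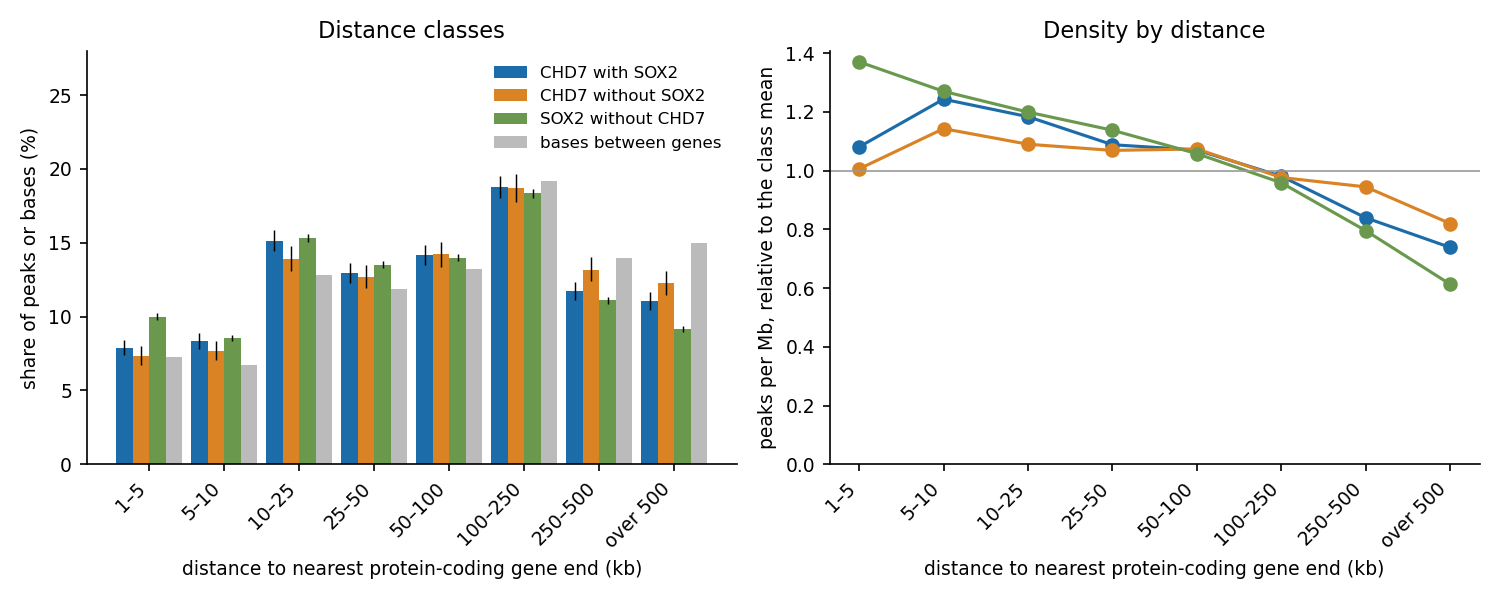
Left, share of peaks in each class of distance to the nearest protein-coding gene end (kb), with exact 95% intervals as bars, beside the share of all bases between genes (grey). Right, peaks per Mb in each class of distance divided by the mean of the peak class. The regions (blue) run from above 1 near genes to below 1 beyond 100 kb, and lie between the other classes at the far end.

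The farthest regions stood in long gene-free stretches beside adhesion genes. The record was chr14:82268601-82269150, 2174 kb from Pcdh17, a protocadherin gene, with a CHD7 total of 474 and a SOX2 total of 880. The next, 2157 kb from Olfm4, lay in the same stretch. The other 3 of the 5 farthest lay between Cntnap5b, a contactin-associated protein gene, and Cdh20, a cadherin gene, at 2137, 2124 and 2114 kb. Their CHD7 totals of 656, 642 and 738 were near the median of all regions.

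The side of the gene was close to even. For the 7955 regions whose nearest gene has a strand in the table used, 52.2% (51.1 to 53.3) were nearest to its 5′ end, against 52.4% and 52.6% in the other classes. Near the thresholds of the rule, the closest regions inside were 1017 bases from Gm30083, 1025 from Borcs6 and 1026 from Bhlhe40, and the closest peaks outside were 992 bases from Klhl6, 990 from Hsp90ab1 and 989 from Ptma. The smallest overlap was 50 bases or fewer in 66 regions, with a median total of 540. A further 124 CHD7 peaks missed a SOX2 peak by 50 bases or fewer, with a median total of 553. Across chromosomes the density ran from 5.61 regions per Mb on 19 and X to 7.46 on 16, while SOX2 peaks without CHD7 were scarce on X, at 20.2 per Mb against 37.2 to 52.2 on the autosomes.

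The regions had 4511 different nearest genes, 20.9% of the 21631 protein-coding genes. Of these genes 2460 had a single region. At least 2 regions went to 9.48% of all genes, at least 5 to 2.15% (465 genes, holding 3595 regions) and at least 10 to 0.462% (100 genes). CHD7 peaks without SOX2 reached 16.6% of genes and SOX2 peaks without CHD7 55.3%. The count followed space: genes with a region had a median of 96.0 kb of sequence between genes that was nearest to them, and genes without one 11.05 kb. For this reason the numbers of genes reached are given below together with the regions per Mb of that sequence, against 6.60 for all genes, with exact Poisson intervals that cover counting error only.

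Pcdh7, a protocadherin gene, led with 27 regions spread from 19.6 to 1592 kb, 11 on its 5′ side and 16 on its 3′ side, with totals from 437 to 2810. Flrt2, which encodes a membrane protein of cell adhesion and guidance, had 23 regions, and Ncam2, a neural adhesion gene, Slitrk5, a synaptic membrane protein gene, Ndufa4, a mitochondrial protein gene, and Pla2g4a, a phospholipase gene, had 20 each. Per Mb these came to 7.43 at Pcdh7, 8.83 at Flrt2, 7.69 at Ncam2, 9.25 at Slitrk5, 15.1 at Ndufa4 and 13.1 at Pla2g4a. Long gene-free surroundings thus went with most of these counts. Snrpn (26), Gm15319 (23), Asmt (20), Gm21119 (20), Hrh1 (18) and 9530057J20Rik (17) had between 37.8 (Asmt) and 152 (Hrh1) regions per Mb, and in these loci most or all regions were among the 673 unusual ones.

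Protocadherin, cadherin and ephrin genes had many regions but fewer per Mb than all genes. Of 12 non-clustered protocadherin genes 11 had a region (92 regions), at 4.53 per Mb (3.65 to 5.55), and of 23 cadherin genes 15 had one (101 regions), at 4.48 per Mb (3.65 to 5.45). Of 22 ephrin and Eph genes 10 had one, at 4.38 per Mb (3.21 to 5.84), with Efnb2 (11 regions) and Epha7 (10) first. Regions per Mb do not adjust for distance, and over all genes they fell to 4.88 beyond 500 kb. The median sequence nearest to a gene was 1793 kb for these protocadherins, 669 kb for cadherins and 38.7 kb for ephrin and Eph genes, against 16.6 kb for all genes. The part of distance in the lower densities was not tested. The SLITRK, LRRTM and FLRT genes, 8 of 13 with 79 regions, stood at 7.62 per Mb (6.04 to 9.50), above the 6.60 of all genes, which lies within this interval. Slitrk6, which is needed for the innervation of the inner ear, had 12 regions from 105.8 to 840 kb, with totals from 465 to 1694.

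Genes that pattern the otocyst were reached often. Of 40 otocyst regulators 29 had a region (72.5%, against 20.9% of all genes), with 105 regions at 8.80 per Mb (7.20 to 10.7). Of 24 prosensory and hair cell genes 18 had one, with 52 regions at 9.15 per Mb (6.84 to 12.01), and of 27 semicircular canal genes 16 had one, with 69 regions at 7.77 per Mb (6.05 to 9.84). In the 25 genes of neuroblasts and neurogenesis 13 had one, with 30 regions at 6.55 per Mb (4.42 to 9.35), close to all genes. The other classes were also somewhat denser beside the otocyst regulators, with CHD7 peaks without SOX2 at 5.28 per Mb against 4.35 and SOX2 peaks without CHD7 at 50.1 against 44.2. Beside the prosensory, semicircular canal and neuroblast lists CHD7 peaks without SOX2 stood at 5.63, 5.75 and 7.42 per Mb. SOX2 peaks without CHD7 stood there at 51.4, 45.6 and 41.5. The lists share genes, so their counts overlap.

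**Figure D3:**
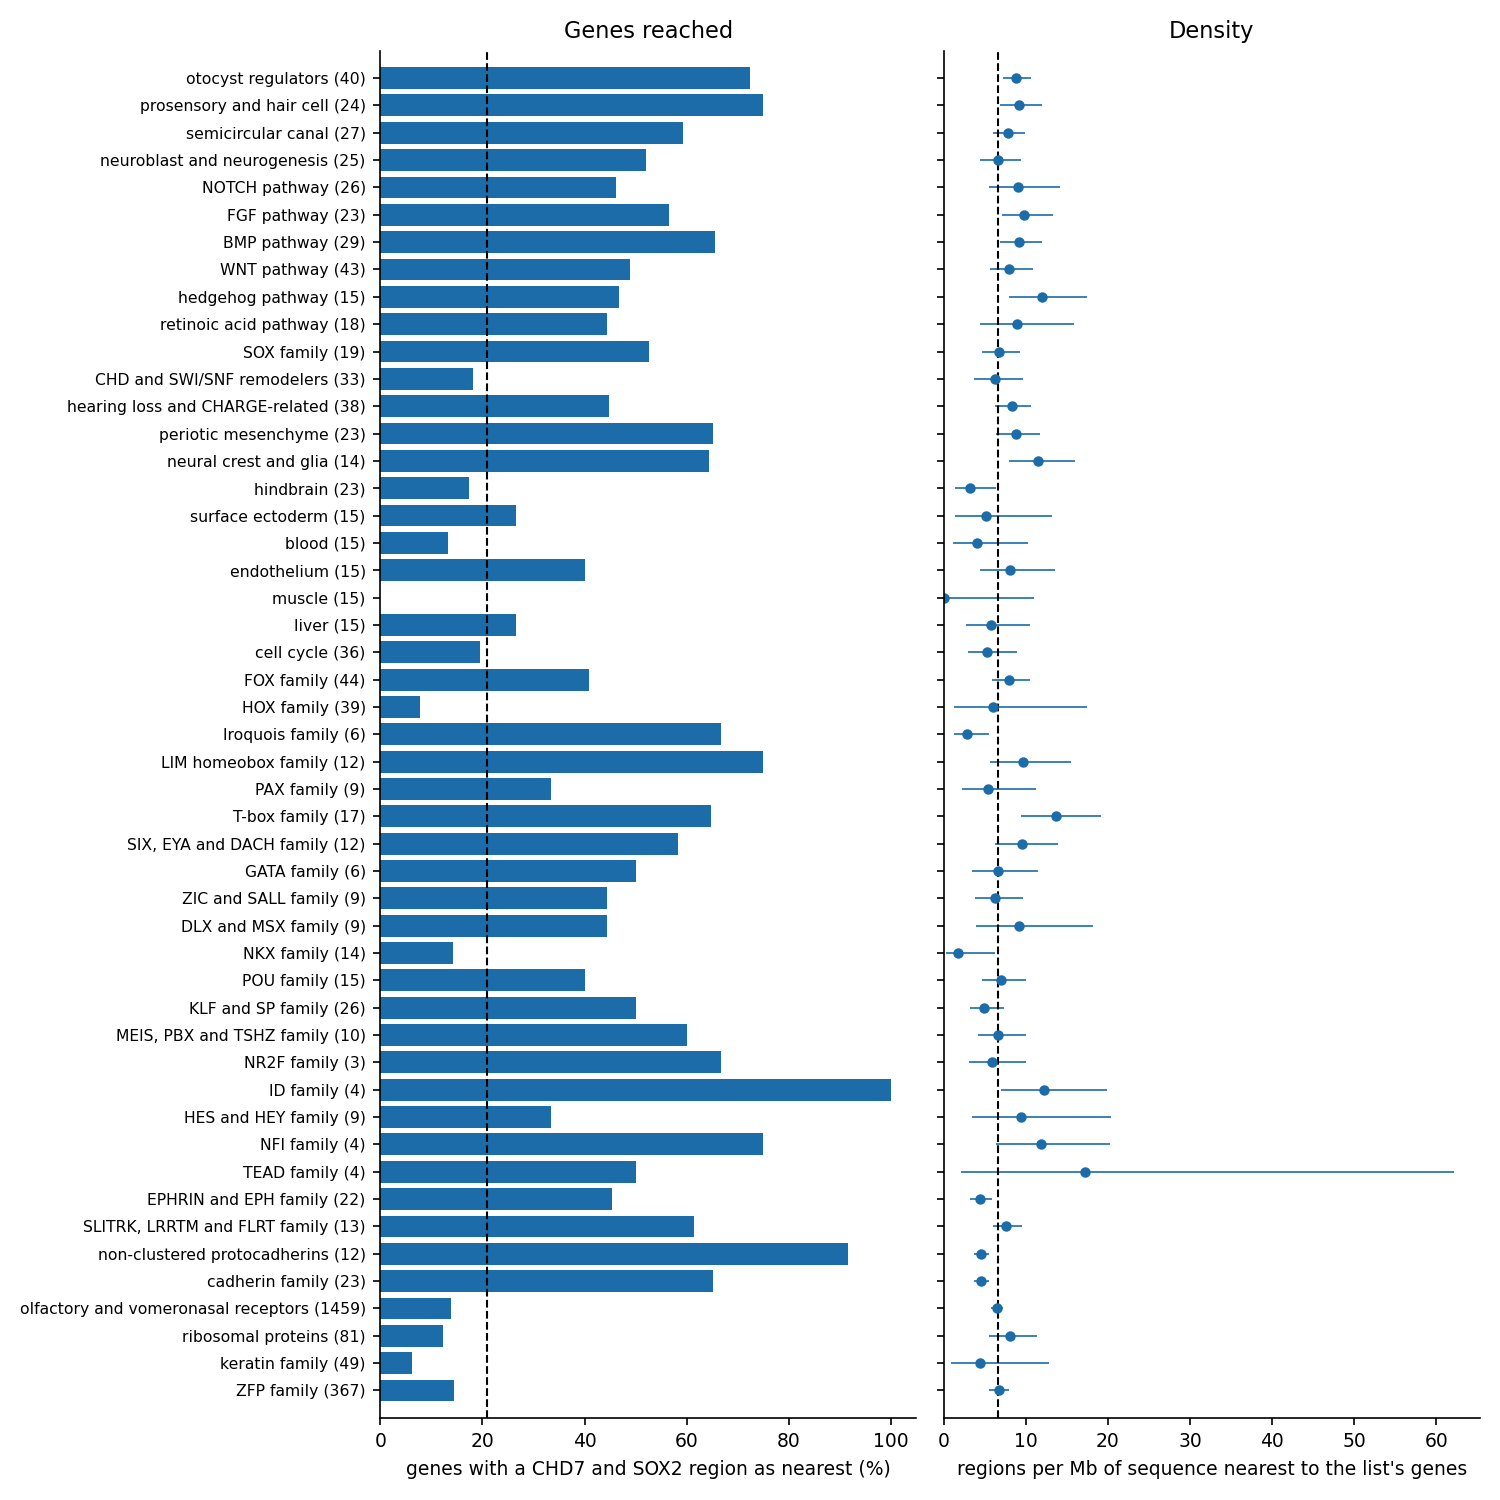
Left, share of the protein-coding genes of each list (number of genes in brackets) that are nearest to at least 1 region, with the value for all genes (20.9%) dashed. Right, regions per Mb of between-gene sequence nearest to the genes of the list, with exact Poisson 95% intervals and the value for all genes (6.60) dashed, where the T-box, hedgehog, ID and neural crest lists stand to the right and the NKX, Iroquois and hindbrain lists to the left.

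Sox2 had 8 regions, all on its 3′ side. They stood 10.9, 14.9, 142.7, 195.2, 196.8, 198.5, 214.3 and 307.7 kb from the gene, with CHD7 totals in that order of 610, 1002, 492, 738, 528, 1047, 979 and 597. The SOX2 totals ran from 1114 to 2053. The first pair lay in Sox2ot, the long noncoding gene that overlaps Sox2, and 4 others in the noncoding gene Gm21388, of which 3 formed a group of 4.90 kb at chr3:34847701-34852600. Sox2 also had both a CHD7 and a SOX2 peak at a gene end. Its surroundings held 8 CHD7 peaks without SOX2 as well, so the regions were not the only CHD7 peaks there.

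Chd7 had 2 regions, both on the higher-coordinate side, at 42.6 and 70.6 kb. Their CHD7 totals were 601 and 706, below the median of all regions, and their SOX2 totals 2082 and 1349. Chd7 had a SOX2 peak but no CHD7 peak at a gene end.

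Several transcription factor genes of the otic placode and otocyst had strings of regions. Gata3, whose loss in people causes deafness with kidney and parathyroid defects, had 10 regions from 47.7 to 979 kb, all on the 3′ side. The one at 59.1 kb had a CHD7 total of 1986 and the one at 80.6 kb 1717, the latter with a SOX2 total of 10556. Those beyond 600 kb had CHD7 totals between 710 and 911. Gata3 had a SOX2 peak but no CHD7 peak at a gene end.

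Eya1, a gene of placodes whose mutation causes branchio-oto-renal syndrome, had 4 regions, at 115.8 and 49.0 kb on one side with totals of 442 and 483, and at 53.4 and 195.2 kb on the other with 1134 and 1198. The stronger pair at Eya1 also had the higher SOX2 totals, 2903 and 2639 against 1114 and 880.

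Isl1, a LIM homeobox gene of sensory and neural progenitors, had 7 regions from 3.77 to 556 kb. Of these, 6 were on the 3′ side, and the strongest, with a total of 2131, was a broad peak at 327.5 kb of which SOX2 covered 22.6%. That peak was wider than 3 kb and belongs to the unusual regions, without which Isl1 had 6. Tfap2a, an early ectoderm and neural crest factor, had 6 regions from 14.8 to 125 kb on the 3′ side, and the nearest was also the strongest, with totals of 1357 for CHD7 and 6099 for SOX2. Pou3f4, whose loss causes X-linked deafness, had 6 regions. The region at 61.0 kb on its 3′ side had the highest totals, 3361 and 6686, and the region at 85.4 kb on its 5′ side followed with 1895 and 2668. The latter was also wider than 3 kb and unusual, and without the unusual regions Pou3f4 had 5. The remaining Pou3f4 regions had CHD7 totals of 437 to 1157.

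**Figure D4:**
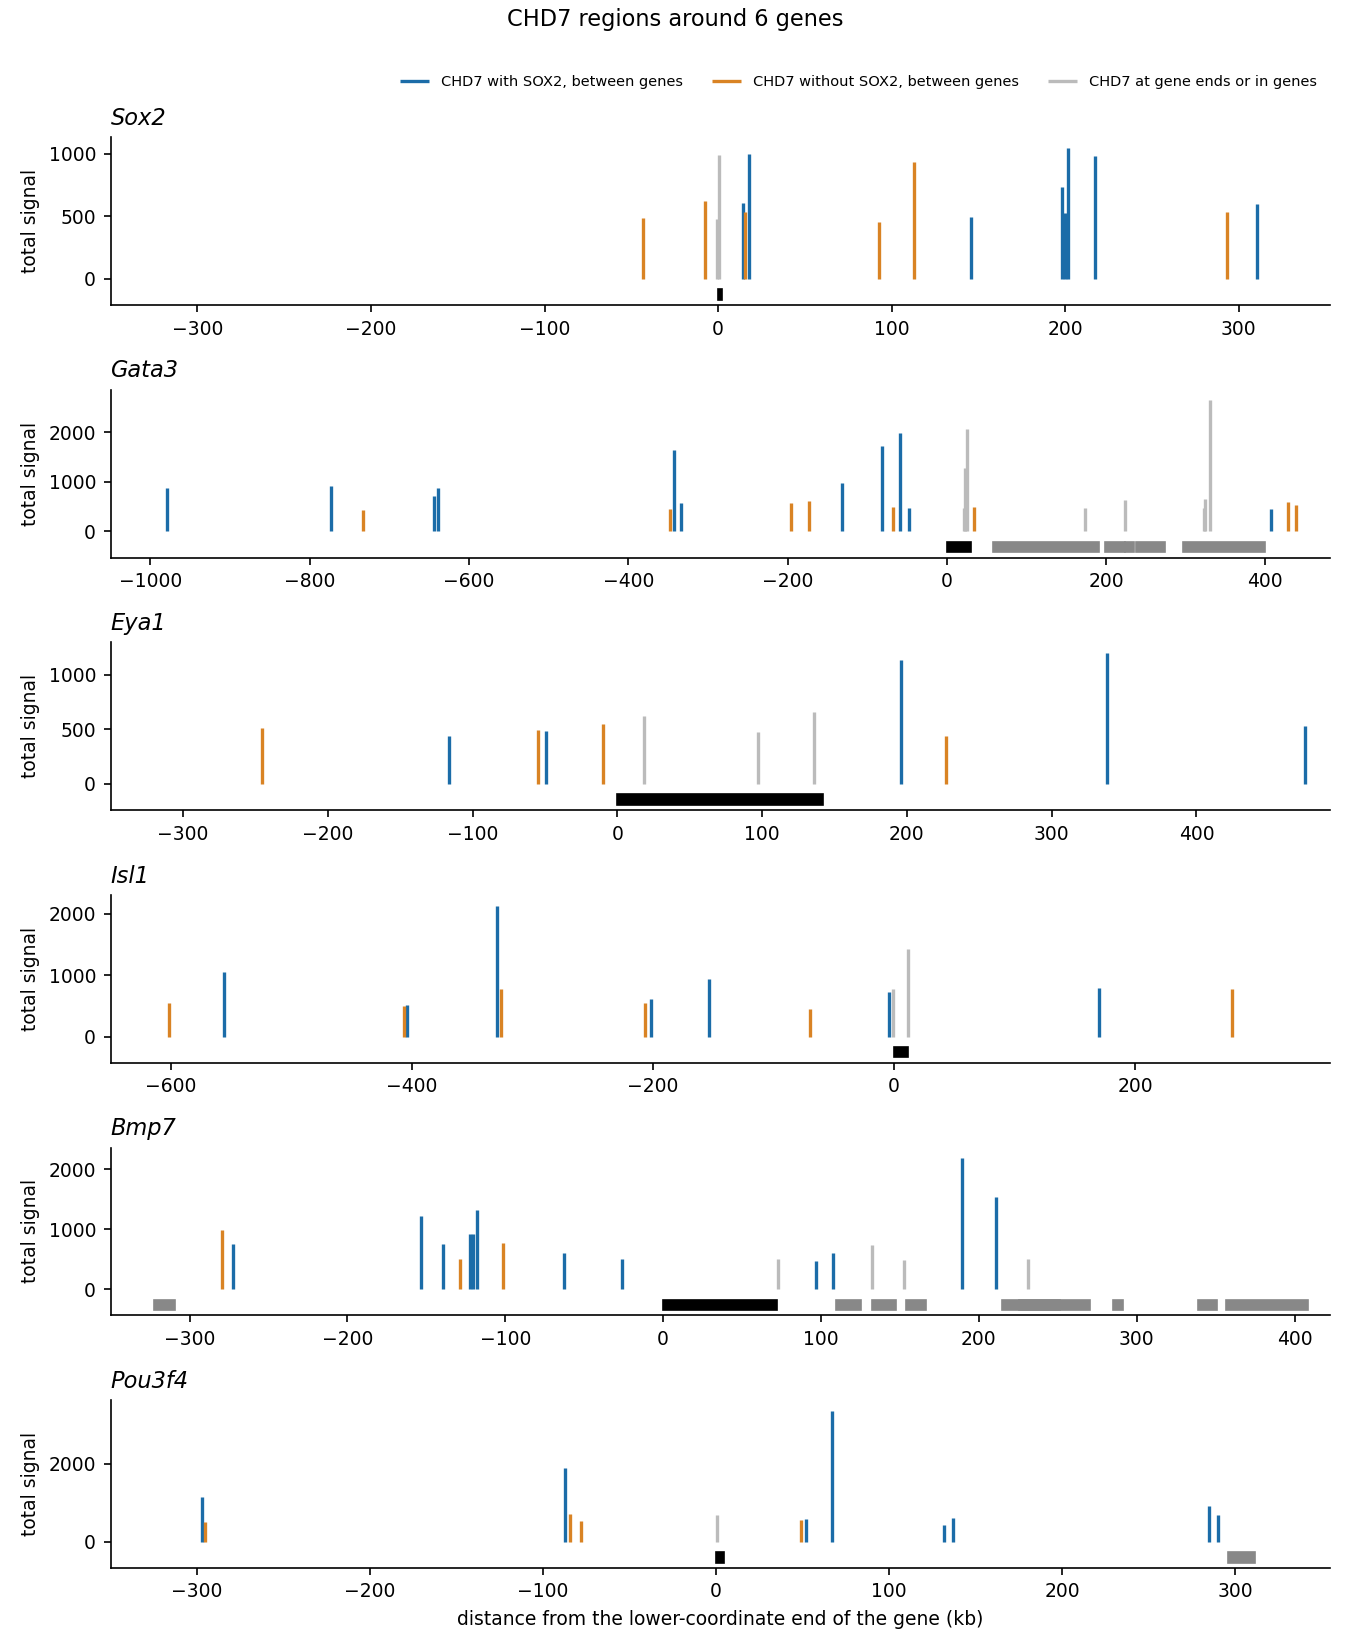
CHD7 total signal (y axis, units of the CHD7 list) of every CHD7 peak near 6 genes, by distance in kb from the lower-coordinate end of the gene (x axis). Regions with SOX2 between genes are blue, CHD7 peaks between genes without SOX2 orange, peaks at gene ends or in genes grey, the named gene a black box and other protein-coding genes grey boxes, and within its own panel the strongest blue line is 1047 for Sox2, 1986 for Gata3, 1198 for Eya1, 2131 for Isl1 (an unusual region), 2186 for Bmp7 (nearest to another gene) and 3361 for Pou3f4.

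Signals that shape the ear were also among the nearest genes. Of 29 BMP pathway genes 19 had a region, with 54 regions at 9.18 per Mb (6.90 to 11.98). Bmp7, a ligand gene, had 7, all on the lower-coordinate side between 25.6 and 152.8 kb, with CHD7 totals of 510, 597, 1321, 925, 920, 751 and 1225 from the nearest to the farthest. Of these 3 formed a group of 5.85 kb. Bmp2, a ligand gene of canal formation, had 5 regions with totals of 683 to 2737, the strongest at 75.4 kb on the side without the other 4. Fst, the gene of the secreted inhibitor follistatin, had 5 with totals of 565 to 1558. Beside the BMP list CHD7 peaks without SOX2 stood at 4.93 per Mb against 4.35 for all genes. SOX2 peaks without CHD7 stood there at 54.1 against 44.2.

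The ID genes, which are direct targets of BMP signals and encode inhibitors of bHLH factors, all had regions, 16 in total at 12.2 per Mb (6.996 to 19.9). Id1 had 3 within 5.75 kb, with CHD7 totals of 1120, 674 and 1216, and Id3 had 3 within 7.07 kb, with 729, 619 and 2204. Id4 had 7 and Id2 3. Every ID gene also had a CHD7 and a SOX2 peak at a gene end. Beside the ID genes SOX2 peaks without CHD7 stood at 54.3 per Mb against 44.2 for all genes. CHD7 peaks without SOX2 stood there at 3.82 against 4.35.

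Of 23 FGF pathway genes 13 had a region, with 41 regions at 9.81 per Mb (7.04 to 13.3). In this list 77.4% (63.8 to 87.7) of the CHD7 peaks between genes met SOX2, against 60.3% for all genes. That was the highest share of the pathway lists. It was 69.2% for hedgehog, 65.5% for NOTCH, 65.1% for BMP, 60.3% for WNT and 57.9% for retinoic acid. Otocyst regulators had 62.5%, prosensory and hair cell genes 61.9%, semicircular canal genes 57.5% and neuroblast genes 46.9%. The ligand gene Fgf8 had 3 regions. They formed a group of 8.50 kb at 28.1 to 35.1 kb with totals of 2040, 1366 and 628. Fgf9, the gene of a ligand that acts on the mesenchyme around the ear, had 8. Its 4 on the 5′ side formed a group of 6.05 kb with totals of 492 to 706. Spry2, a feedback inhibitor gene, had 7 with totals of 638 to 2578, 1 of them at 1.58 kb. Without the unusual regions Spry2 had 6. Etv5, a target gene, had none. Beside the FGF list SOX2 peaks without CHD7 stood at 51.9 per Mb against 44.2 for all genes. CHD7 peaks without SOX2 stood there at 2.87 against 4.35.

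The hedgehog list was smaller and denser, with 27 regions at 11.96 per Mb (7.88 to 17.4) in 7 of 15 genes. Gas1, the gene of a coreceptor, had 8 between 1.87 and 152.0 kb with totals of 537 to 897. Gli3, a transcriptional effector gene, had 6, all on the 5′ side, with totals of 465 to 1084, and 3 of them formed a group of 4.25 kb. Shh, the ligand gene, had 5 with totals of 656 to 925 and neither a CHD7 nor a SOX2 peak at a gene end. Boc and Dhh had none. The other classes were also denser beside the hedgehog list. CHD7 peaks without SOX2 stood at 5.32 per Mb against 4.35 for all genes, and SOX2 peaks without CHD7 at 63.4 against 44.2.

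In the other pathways the interval of the density included the 6.60 of all genes. Of 43 WNT genes 21 had a region, with 38 regions at 7.92 per Mb (5.60 to 10.9), led by Rspo2 (4). With the stronger 50% of each peak list 7 of the 43 remained, or 16.3% against 13.6% of all genes. Of 26 NOTCH genes 12 had one, with 19 regions at 9.05 per Mb (5.45 to 14.1), and Hey2 and the ligand gene Jag1 had 3 each. Where the places of highest coverage of both proteins had to share a base, 4 of the 26 had one, or 15.4% against 9.79% of all genes. Of 18 retinoic acid genes 8 had one, with 11 regions at 8.87 per Mb (4.43 to 15.9). Aldh1a2, which makes retinoic acid, had 3, with CHD7 totals of 442 to 8694, and 2 of these remained without the unusual regions.

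Among transcription factor families the T-box genes had the highest density of those with over 10 regions, 33 at 13.7 per Mb (9.40 to 19.2) in 11 of 17 genes. The other classes were dense beside the T-box genes too. CHD7 peaks without SOX2 stood at 8.28 per Mb against 4.35 for all genes, and SOX2 peaks without CHD7 at 58.3 against 44.2. Of the CHD7 peaks between genes there, 62.3% met SOX2, close to the 60.3% for all genes. Tbx18, a gene of the mesenchyme around the ear, had 10 from 1.04 to 219 kb, with totals of 433 to 2505. At the other end were the NKX genes, with 2 regions at 1.73 per Mb (0.210 to 6.26) in 2 of 14 genes, although 12 CHD7 peaks without SOX2 lay beside them, and the Iroquois genes, with 8 at 2.79 per Mb (1.21 to 5.503) in 4 of 6. With the genes on both sides of a region counted, 6 of the 14 NKX genes had one, or 42.9% against 30.6% of all genes, where the nearest gene alone gave 14.3% against 20.9%. Of 39 HOX genes 3 had a region, each with 1, at 5.95 per Mb (1.23 to 17.4), and the median sequence between genes of the HOX list was 1.54 kb. The 19 SOX genes measured, at 6.68 per Mb (4.63 to 9.33), did not stand out, with Sox17 (6 regions) and Sox4, Sox5 and Sox9 (4 each, 2 of the Sox5 regions being unusual) after Sox2. The 33 CHD and SWI/SNF genes had 19 regions at 6.18 per Mb (3.72 to 9.64) in 6 genes, led by Smarca1 (7) and Arid1b (5). Without the unusual regions Smarca1 had 6 and Arid1b 4.

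Kdm6a, a gene of Kabuki syndrome whose features overlap those of CHARGE syndrome, had 5 regions in 72.2 kb of sequence, 69.3 per Mb, of which 3 remained without the unusual regions. They lay 14.1 to 59.2 kb beyond its 3′ end, with CHD7 totals of 2423, 547, 3083, 756 and 783. The list of genes of hearing loss and CHARGE-related disorders as a whole had 58 regions at 8.25 per Mb (6.27 to 10.7), in 17 of 38 genes.

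Genes that mark neighbouring tissues were reached too. Of 23 genes of the periotic mesenchyme 15 had a region (44 regions, 8.77 per Mb, 6.37 to 11.8), and of 14 genes of neural crest and glia 9 had one (35 regions, 11.5 per Mb, 7.996 to 15.96). Ets1, a neural crest and endothelial factor gene, had 15 of these from 77.1 to 540 kb, with totals of 437 to 4158. CHD7 peaks without SOX2 stood at 7.38 per Mb beside the periotic list and 3.94 beside the neural crest list, against 4.35 for all genes. Of the CHD7 peaks between genes 54.3% (42.9 to 65.4) met SOX2 in the periotic list and 74.5% (59.7 to 86.1) in the neural crest list. Of 23 hindbrain genes 4 had one, with 8 regions at 3.21 per Mb (1.38 to 6.32), and Pax6 held 5 of these, all touching the noncoding gene Pax6os1. In the hindbrain list 30.8% (14.3 to 51.8) of CHD7 peaks between genes met SOX2. When each region was counted for the genes on both of its sides, 12 of the 23 hindbrain genes had one, or 52.2% against 30.6% of all genes, so that the share moved from below that of all genes (17.4% against 20.9%) to above it. The other tissue lists, of 15 genes each, are short and their intervals all include the 6.60 of all genes. Endothelium had 6 genes reached (8.10 per Mb, 4.43 to 13.6), surface ectoderm 4 (5.13, 1.40 to 13.1), liver 4 (5.69, 2.73 to 10.46) and blood 2 (4.02, 1.09 to 10.3). No muscle gene was reached, in 0.336 Mb of sequence, which allows up to 10.99 per Mb. A peak near a gene does not show that the gene was active, so which cells carried these peaks was not tested. Of 36 cell cycle genes 7 were reached (5.29 per Mb, 2.89 to 8.88), and of 1459 olfactory and vomeronasal receptor genes 201 were, at 6.48 per Mb (5.76 to 7.26).

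Some regions that ranked high for both proteins lay near genes of the lists, leaving out the unusual ones, and these were picked after their ranks were seen. By the worse of its CHD7 and SOX2 ranks among the 10161 regions, the first of them stood at 202 (Has2) and the last at 829 (Foxd3). A region 173.9 kb from Has2, the hyaluronan synthase gene of canal outgrowth, had totals of 5789 for CHD7 and 11524 for SOX2. A region 11.6 kb from Irx1 had 6299 and 7888. A region 60.8 kb from the WNT inhibitor gene Axin2 had 2746 and 17887. A region 29.2 kb from Grhl2, an epithelial factor gene whose mutation causes hearing loss, had 3124 and 6070. Regions 25.1 kb from Foxd3, 44.95 kb from Hhip and 92.2 kb from Wnt5a had CHD7 totals of 2815, 2168 and 2409.

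The nearest genes carried gene-end peaks of both proteins at nearly the share of all genes. A CHD7 and a SOX2 peak within 1 kb of a gene end were present in 1308 of the 4511 genes, or 29.0% (27.7 to 30.3), against 28.6% of all genes and 28.5% (27.8 to 29.2) of genes without a region. For CHD7 alone the share was 31.8% against 31.1% of all genes, and for SOX2 alone 62.5% against 60.3%. The share with both was 33.2% (28.3 to 38.2) for genes with 5 to 9 regions and 38.0% (28.5 to 48.3) for those with 10 or more. Among genes with 20 to 100 kb of sequence nearest to them it was 26.9% (24.8 to 29.0) with a region and 22.6% (21.5 to 23.8) without. Among genes with 100 to 500 kb it was 29.1% (26.9 to 31.4) and 27.6% (24.6 to 30.7).

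**Figure D5:**
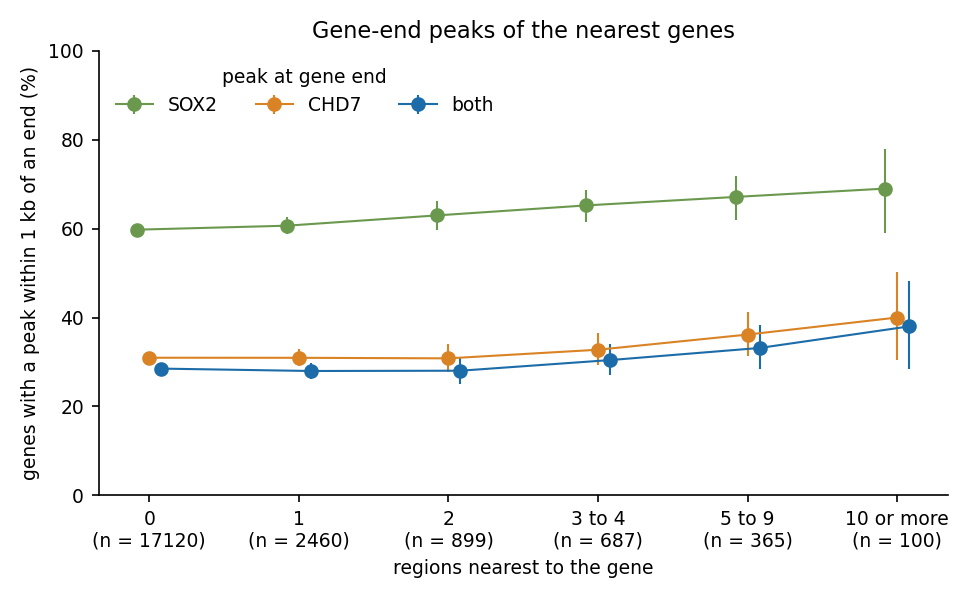
Share of protein-coding genes with a peak within 1 kb of a gene end (y axis, %), for SOX2 (green), CHD7 (orange) or both (blue), by the number of regions nearest to the gene (x axis, number of genes below), with exact 95% intervals as bars. The share with both is 28.5% without a region and 38.0% in the 100 genes with 10 or more.

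Most regions stood alone. When regions up to 10 kb apart were joined, 8095 places resulted, of which 6524 held 1 region, 309 held at least 3 and 8 held at least 10. Without the unusual regions 253 places held at least 3, and when SOX2 had to cover at least 50% of the CHD7 peak the number was 138. The largest was a stretch of 144.9 kb at chr6:114492851-114637750 between Hrh1 and Atg7, with 30 regions, 70 SOX2 peaks and a median CHD7 total of 4459. Others were 14 regions over 57.6 kb beyond Asmt on X, 14 over 41.55 kb between Ube3a and Snrpn, among snoRNA genes and their host Snhg14, and 4 stretches of 10 to 12 near 20 Mb on chromosome 8, among Gm15319, Gm40469 and Gm21119. The median CHD7 totals of the stretches on X and chromosomes 7 and 8 ran from 549 to 925.

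Groups of 3 or 4 beside genes of the lists were smaller, and their median CHD7 totals ran from 455 to 2423, on both sides of the 720 of all regions. Nr2f2, a nuclear receptor gene, had 4 regions over 18.2 kb (median total 865), and Fgf9 4 over 6.05 kb. Nr2f1, its relative, had 3 over 4.05 kb with a median total of 1544, in the noncoding gene A830082K12Rik, the nearest 1.33 kb from the gene. Among the 16548 intervals between neighbouring genes, 3945 held a region and 142 held at least 10. The interval with the most was Slitrk5 to Gpc5, 3.41 Mb with 36 regions, 10.6 per Mb. Of the 281 intervals over 1 Mb, 275 held a region and together they had 2720.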

How the data were processed

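CUT&Tag of 1 CHD7 and 1 SOX2 library was read from the deposited peak lists. The authors gave each peak a total and a highest coverage signal, and the submitters' processing notes name the build mm10 and the tools Bowtie2, deepTools and SEACR. For their versions, thresholds, scaling and use of the control no source used here gives a value; read depth is unknown, and signals were compared within a list only. Peak borders follow bins of 50 bases.

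Genes came from RefSeq (GRCm38.p6), 21631 protein-coding genes on chromosomes 1 to 19 and X, of which 17274 matched a strand. Regions were assigned to the nearest gene end, and sequence between genes was divided in the same way. There are no replicates, so no test was made. Intervals are exact at 95% (Clopper-Pearson for shares, Poisson for densities) and cover counting error only. Regions and gene lists were chosen with earlier results of these data known. Genes named were Chd7, Sox2, those beside the strongest, farthest and most grouped regions, the 15 with the most regions and, from each of 49 lists, up to 6 with the most regions and up to 2 with none (3 and 2 for tissue markers). Some genes that this rule names are not reported here. The overlap and distance code was checked against simpler code on simulated data. The scripts ran in Python 3.11.15, with pandas 2.3.3 and numpy 2.4.6 for the tables, scipy 1.17.1 for the intervals and matplotlib 3.10.9 for the figures.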

Additional observations from a re-analysis of the deposited data

Results flagged for a closer look

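Signal was also present outside the chromosomes analysed above. On chromosome Y and unplaced sequences lay 373 CHD7 peaks, of which 224 (60.1%) shared a base with a SOX2 peak. Of the 217 on chromosome Y, 110 did. No control list was used to set a background for them.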

How the results depend on the processing

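With the stronger 50% of each list there were 5163 regions, 2944 nearest genes, 18.5% of them with both gene-end peaks, and 69 groups of at least 3. When the places of highest coverage had to share a base, these were 3123, 2118, 31.7% and 16, and the median distance was 70.2 kb. The share of all genes with both gene-end peaks under these settings is not given here. The 18.5% and 31.7% therefore do not show a change particular to the nearest genes. Among the 10000 strongest peaks of each list there were 1731 regions. The median distance was 78.6 kb when 5 kb around gene ends was left out and 21.2 kb with genes of every biotype. Groups of at least 3 numbered 138 when SOX2 covered at least 50% of the CHD7 peak and 488 with joining up to 25 kb. The cause of these shifts was not tested beyond the smaller or larger sets that the settings themselves make. The setting without unusual regions was chosen after seeing the data and left 9488 regions, 4315 nearest genes and 253 groups. The number of genes reached moved by over 1.5 times in 25 of the 49 gene lists when the places of highest coverage had to share a base, in 16 with the stronger 50% of peaks, in 11 when the genes on both sides of a region were counted and in 3 when SOX2 covered at least 50% of the CHD7 peak. Set against the share of all genes, the hindbrain, NKX and cell cycle lists went from below to above it, and the liver list from above to below it, with the genes on both sides counted. The CHD and SWI/SNF and cell cycle lists went above it, and the TEAD list below it, where the places of highest coverage had to share a base. With at least 50% of the peak covered the GATA list went below it and the cell cycle list above it, as the cell cycle list also did when 5 kb around gene ends was left out. Motifs in whole peaks were not run, since no genome sequence was used here. No paired analysis was possible because each antibody has 1 library and no test was made. The number of called peaks limits the precision, and the depth behind it is unknown.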
